A study of Punica granatum with 14 samples.

Results

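Among the leaf transcriptomes of pomegranate (Punica granatum L.) seedlings, 136 genes had a higher level in each of the 4 mannitol-treated plants than in any of the other 10 plants, and 313 genes had a lower level in each of them. The level was the CPM, the count divided by the total count of its library and multiplied by 1000000, and the score of a gene was the gap on the log2(CPM + 1) scale between the nearest mannitol plant and the nearest other plant. The genes were chosen by these measured levels, and in each direction the 100 with the highest scores were kept, so that the genes described here are 200 of the 27893 in the count table. Of the 23231 genes with any count, 0.585% lay above and 1.35% lay below without overlap, which are the shares that the selection itself fixed. The values that chose these genes are given as a description, without a test.

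In each of 7 conditions 2 plants were sequenced, which were mannitol at 2.5 and 15 g/L, paclobutrazol at 6 and 8 mg/L, daminozide (B9) at 6 and 8 mg/L, and the control treated with distilled water (CK). All were wild-type shoots of the cultivar Hongmanao, raised from stem tips on the same sucrose and auxin (IBA) medium, and their leaves were taken after 90 days of treatment. The labels do not say how many mother plants the shoots came from. Libraries held between 15790717 and 28385703 counts, and the correlation of log2 CPM between the 2 plants of a condition was 0.958 to 0.973, except for 6 mg/L paclobutrazol, where it was 0.904. Since leaves were sequenced in bulk, fewer cells of a type and less RNA per cell cannot be told apart. None of the sources used here pairs the gene symbols with a product, so neither the identity of the leaf tissue nor the function of any gene named here could be examined, and no role is given to them.

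Mannitol is a sugar alcohol that most plants take up and use only slowly. In a culture medium it lowers the water potential, so that water is harder to take up, and it is used to slow the growth of shoots kept in vitro. Water deficit in plants is known to act through osmotic sensing and abscisic acid, and to lower cell expansion. Paclobutrazol and B9 act differently, by inhibiting early and late steps of gibberellin synthesis.

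The gene with the widest gap above the other plants was LOC116213739, a protein-coding gene. Its levels were 245 and 263 CPM at 2.5 g/L and 215 and 202 CPM at 15 g/L, against 38.6 to 110.1 CPM (median 86.9) in the other 10 plants, of which CK had 99 and 106. It averaged 231 ± 28 CPM (SD, n = 4) under mannitol and 80.3 ± 24 CPM (SD, n = 10) in the rest, a 2.88-fold difference of the means with a score of 0.87. All 4 mannitol plants lay close together, and the B9 and CK plants lay above most paclobutrazol plants. LOC116214706 had 186 and 220.3 CPM at 2.5 g/L and 212 and 265 CPM at 15 g/L, against 8.27 to 106 CPM (median 51) elsewhere, and 100.5 and 53.8 in CK. Its lowest value came from replicate 2 of 6 mg/L paclobutrazol, and the means differed 3.62-fold. LOC116194453 had 19.9 and 18.9 CPM at 2.5 g/L and 17.6 and 16.5 CPM at 15 g/L, against 0.837 to 9.55 CPM (median 4.52) in the others and 7.4 and 4.19 in CK, a 3.95-fold difference of the means. The mannitol plants were again close to each other, while the other plants were spread over a wide range.

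LOC116201522 had 352 and 347 CPM at 2.5 g/L and 411 and 444 CPM at 15 g/L, against 86.8 to 241 CPM (median 170.1), with both CK plants (215 and 241) at the top of the other plants. LOC116213745 had 98.1 and 104 CPM at 2.5 g/L and 88.2 and 91.3 CPM at 15 g/L, against 22.8 to 63.1 CPM (median 41.5), and CK had 62.3 and 63.1. In both genes CK was the condition nearest to mannitol. LOC116187372 was more variable, with 412 and 504 CPM at 2.5 g/L and 665 and 363 CPM at 15 g/L, against 88.5 to 275 CPM (median 195) and 112 and 259 in CK, and its means differed 2.62-fold. LOC116213540 had 652 and 730.2 CPM at 2.5 g/L and 759.9 and 747 CPM at 15 g/L, against 276 to 501 CPM (median 406), and LOC116205061 had 230.2 and 254 CPM at 2.5 g/L and 259.9 and 262 CPM at 15 g/L, against 92.3 to 181 CPM (median 141). The ratio of the means was 1.76 for LOC116213540 and 1.86 for LOC116205061, so a clear gap did not need a large fold difference. LOC116206896 had 8.75 and 7.12 CPM at 2.5 g/L and 7.5 and 7.09 CPM at 15 g/L, against 2.11 to 5.48 CPM (median 4.06), and the means differed 1.81-fold.

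LOC116189418, a long non-coding RNA, was set apart at a very low level. It had 26 and 28 counts at 2.5 g/L mannitol and 26 and 28 counts at 15 g/L, against 0 counts in both CK, both 6 mg/L paclobutrazol and both 8 mg/L B9 plants. The remaining plants had 9 and 5 counts at 8 mg/L paclobutrazol and 2 and 4 counts at 6 mg/L B9. Every mannitol plant thus exceeded every other plant, at total counts that differed less than 2-fold.

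**Figure D1:**
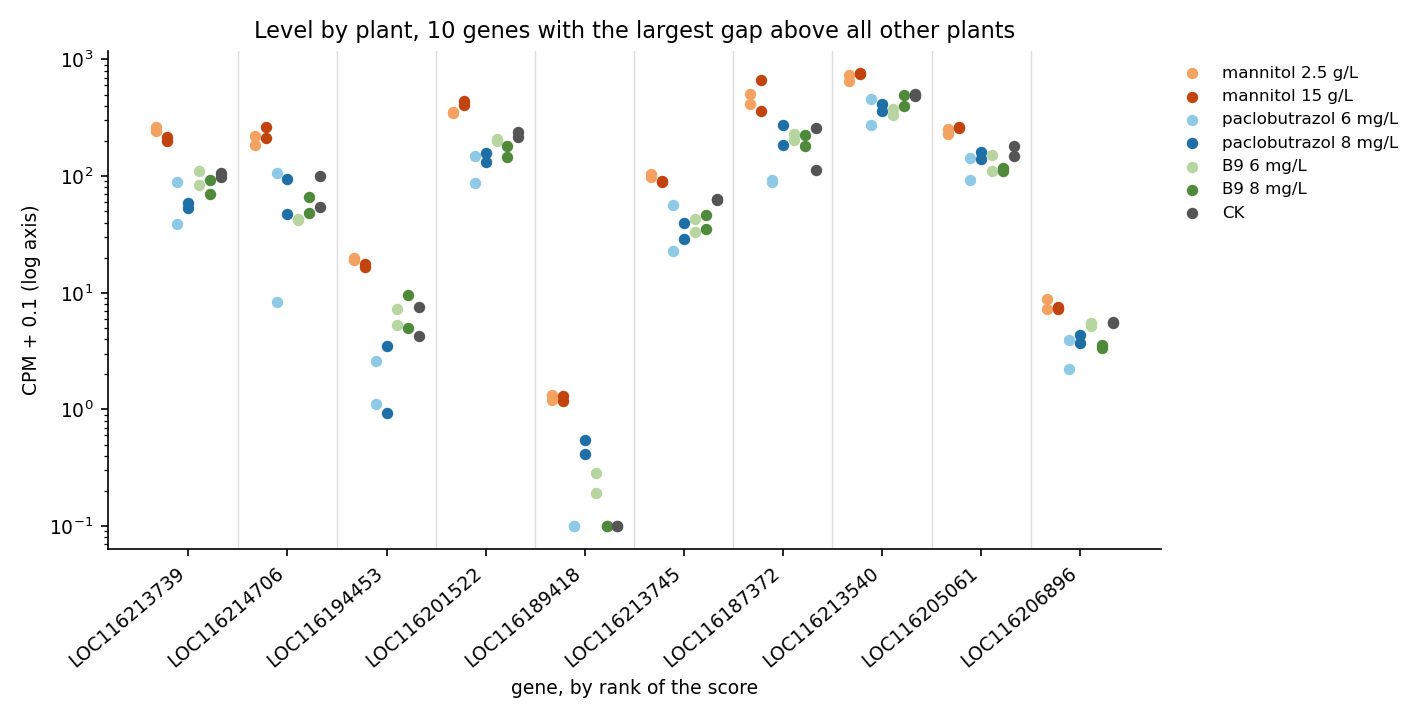
Level of the 10 genes with the highest scores above all other plants, as CPM + 0.1 on a log axis, with 1 point per plant and the genes ordered by score. The 4 mannitol points stand left of the other conditions in each gene and lie above all of them. For LOC116213739 they lie between 202 and 263 CPM, and no other plant exceeds 110.1 CPM.

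Among the genes with lower levels under mannitol, LOC116188503 had the widest gap. Its levels were 3.69 and 4.81 CPM at 2.5 g/L and 3.69 and 1.97 CPM at 15 g/L, against 8.17 to 108 CPM (median 25.6) in the other plants, and CK had 14.4 and 11.2. The means were 3.54 ± 1.17 CPM (SD, n = 4) under mannitol and 37.6 ± 34.6 CPM (SD, n = 10) in the rest. The upper end of that range came from 8 mg/L paclobutrazol, with 84.4 and 108 CPM, so the distance to CK was much smaller than that to paclobutrazol. This gene model overlaps another one in the annotation, and since the strand setting of the counting is not given in the sources used here, its reads cannot be told apart from those of its neighbour. LOC116201220 had 2.92 and 0.699 CPM at 2.5 g/L and 0.663 and 0.214 CPM at 15 g/L, against 4.61 to 350.4 CPM (median 22.8). CK, at 4.61 and 5.14 CPM, was at the bottom of the other plants, and replicate 2 of 6 mg/L paclobutrazol alone reached 350.4 CPM. The ratio of the means of the other plants over mannitol, 50.3, rests largely on that library.

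The remaining genes of this group had narrower ranges. LOC116205485 had 7.85 and 5.81 CPM at 2.5 g/L and 6.09 and 6.5 CPM at 15 g/L, against 11.1 to 20.3 CPM (median 13.9). LOC116188272 had 2.4 and 2.49 CPM at 2.5 g/L and 2.78 and 1.88 CPM at 15 g/L, against 4.15 to 12.4 CPM (median 6.23) and 6.48 and 4.15 in CK. LOC116193491 had 17.2 and 18.4 CPM at 2.5 g/L and 16.7 and 17.5 CPM at 15 g/L, against 25 to 63.4 CPM (median 30.3), where the highest values were from paclobutrazol. LOC116199937, whose model also overlaps another gene, had 3.26 and 1.79 CPM at 2.5 g/L and 4.23 and 4.57 CPM at 15 g/L, against 6.27 to 14 CPM (median 10.2). LOC116213576 showed the tightest mannitol values of the 10 genes relative to their mean, 21.1 and 20.3 CPM at 2.5 g/L and 19.7 and 20.5 CPM at 15 g/L, against 27.6 to 52 CPM (median 35), and the other plants averaged 1.8 times the mannitol mean. LOC116200885 had 3.34 and 2.67 CPM at 2.5 g/L and 3.15 and 2.44 CPM at 15 g/L, against 4.58 to 7.14 CPM (median 5.17).

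Both other genes among the 10 are long non-coding RNAs, and for both CK was far from mannitol. LOC116206762 had 1.76 and 1.05 CPM at 2.5 g/L and 1.37 and 1.32 CPM at 15 g/L, against 2.57 to 8.36 CPM (median 4.31), with CK at 7.72 and 8.22, and its difference from CK in mean log2(CPM + 1) was -1.92, the largest of all 100 genes in this direction. LOC116206399 had 2.36 and 1.97 CPM at 2.5 g/L and 1.2 and 1.07 CPM at 15 g/L, against 3.24 to 10.4 CPM (median 5.74), with CK at 6.6 and 7.06. In this gene the B9 plants, at 3.24 and 4.27 CPM for 6 mg/L and 3.77 and 3.39 CPM for 8 mg/L, were the nearest to mannitol.

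**Figure D2:**
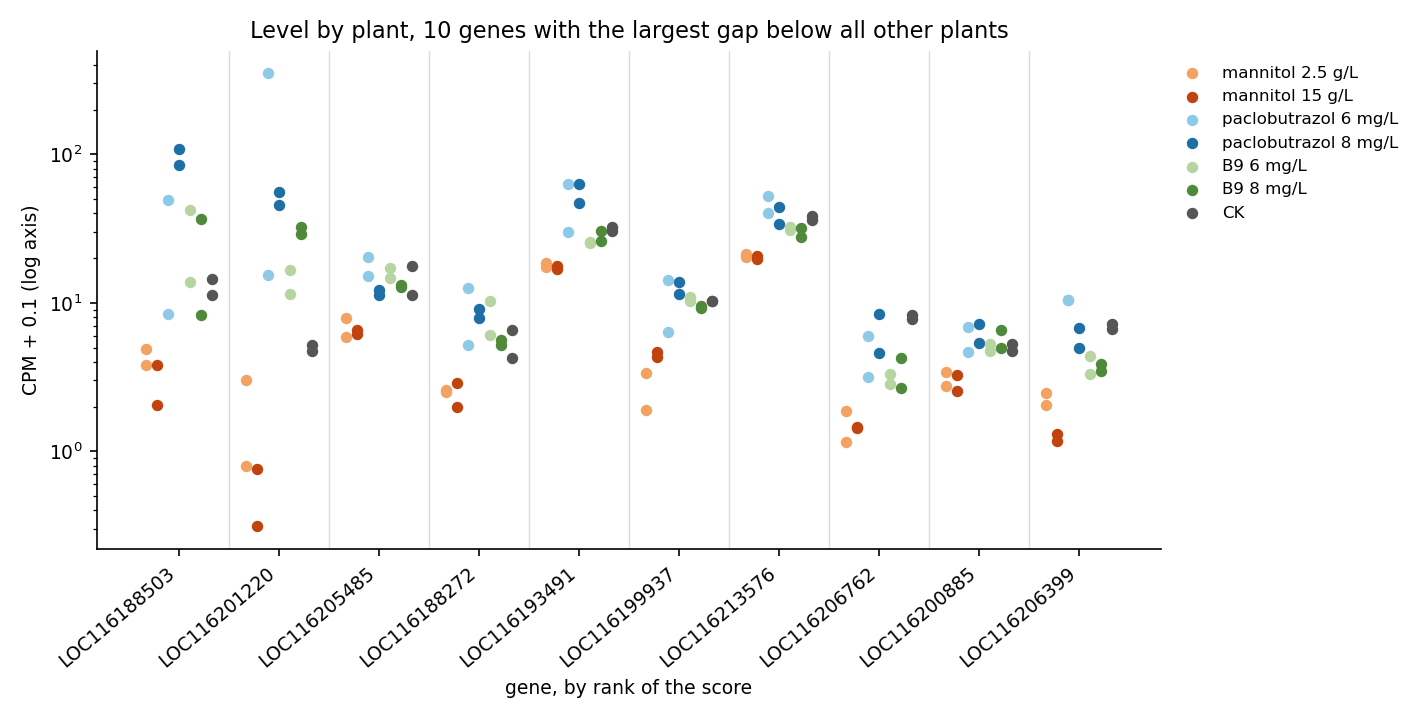
Level of the 10 genes with the highest scores below all other plants, as CPM + 0.1 on a log axis, with 1 point per plant and the genes ordered by score. The 4 mannitol points lie below all others in each gene, and the plants of paclobutrazol often lie highest, as for LOC116188503 with 84.4 and 108 CPM at 8 mg/L.

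Most gaps were narrow. Of the 136 genes above all other plants, 5 had a score over 0.5 and 69 a score over 0.1, and of the 313 genes below, 2 had a score over 0.5 and 110 a score over 0.1. The last 2 genes kept above the other plants were LOC116199683 and LOC116215866, with scores of 0.0368 and 0.0357, and the first 2 left out were LOC116213837 and LOC116199048, with 0.0354 and 0.0353. On the other side, LOC116192351 and LOC116206849 were the last kept, with 0.116 and 0.115, and LOC116201067 and LOC116208123 were left out, with 0.112 and 0.112. The genes at the limit thus differ hardly at all from those left out. LOC116215866, for example, had 67.3 and 70.9 CPM at 2.5 g/L and 90.4 and 101.3 CPM at 15 g/L, against 28.3 to 65.6 CPM (median 56.4).

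The number of genes set apart depended on how the libraries were scaled. With the column totals of the rule, more genes lay below (313) than above (136), whereas TMM-scaled totals gave 190 below and 248 above, and the size factors of DESeq2 gave 173 below and 239 above. Compared to CK, the median difference of all tested genes under mannitol was -0.11 on the log2(CPM + 1) scale with column totals, 0.016 with TMM and 0.010 with the size factors of DESeq2. Most of the genes kept here did not depend on it, since 98 of the 100 genes above and 91 of the 100 below were also set apart with TMM. A single plant left out can only add genes. Without 1 plant the count above reached more than 1.5 times its value for replicate 2 of CK (225), replicate 1 of 6 mg/L paclobutrazol (221), replicate 1 of 2.5 g/L mannitol (208) and replicates 1 and 2 of 15 g/L mannitol (254 and 219). The count below did so for replicate 1 of 6 mg/L paclobutrazol (613) and replicates 1 and 2 of 2.5 g/L mannitol (672 and 492). By the same rule, 376 genes lay above and 466 below in all 4 paclobutrazol plants (1.62% and 2.01% of the genes with any count), and 783 and 205 in all 4 B9 plants (3.37% and 0.882%). Whether these counts differ beyond chance was not tested.

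As sets, the 100 genes higher in mannitol took 1.41% to 1.83% of all counts in the mannitol libraries, against 0.550% to 1.05% in the other 10. The 100 lower genes took 0.236% to 0.295% in the mannitol libraries, against 0.398% to 0.705% in the others. The difference of mannitol from the other plants in mean log2(CPM + 1) ranged from 0.075 to 2.53 over the higher genes, with a median of 0.91, and 39 of them differed by more than 1. Over the lower genes it ranged from -3.73 to -0.34, with a median of -0.77, and 24 differed by more than 1. Against CK alone the medians were closer to 0, at 0.53 and -0.56.

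Both sets were mostly protein-coding, with 95 protein-coding genes and 5 long non-coding RNAs in the higher set and 96 and 4 in the lower set. These proportions are close to those of all tested genes, of which 95.2% were protein-coding and 4.46% long non-coding. The mean level under mannitol was below 1 CPM for 4 of the higher and 8 of the lower genes. At least 1 library had 3 counts or fewer for 12 of the higher and 3 of the lower genes. LOC116197157 is the extreme case. It was included with 1, 1, 1 and 2 counts in the mannitol plants, against 0 counts in the other 10, where 3 counts would correspond to 0.106 to 0.190 CPM, so no difference was detectable at this depth. LOC116194049 had 3 to 5 counts in the mannitol plants, against 0 to 2 counts elsewhere. These 2 genes were removed by the filter on low counts (edgeR's filterByExpr), which left 98 higher and all 100 lower genes among the 19478 genes tested.

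The question whether the genes also differed between the mannitol doses was addressed with edgeR's quasi-likelihood test on all 14 libraries, with p-values adjusted over all tested genes by the Benjamini-Hochberg method. A gene was called when the adjusted p was below 0.05 and the level changed more than 2-fold. None of the 98 and 100 tested genes of the sets was called between 15 and 2.5 g/L, and neither was any other gene (0% of all tested genes). With an unadjusted p under 0.05, 2 genes of the higher set and 2 of the lower set were higher at 15 g/L (7.98% of all tested genes), and 1 gene of the higher set and 6 of the lower set were lower (5.44%). The rule used the levels of these same 4 plants, so the counts are not independent of it. The median standard error of the log2 fold change was 0.33 for the higher and 0.29 for the lower genes.

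The smallest adjusted p among them belonged to LOC116187625, a gene of the lower set, with 72.1 and 54.1 CPM at 15 g/L, against 151 and 129.5 CPM at 2.5 g/L. The doses did not overlap, and the fitted change was -1.04 ± 0.24 (SE, adjusted p = 0.142). LOC116211347 of the higher set had 633 and 904 CPM at 15 g/L, against 345 and 337 CPM at 2.5 g/L and 219 and 279 CPM in CK, and a log2 change between the doses of 1.29 ± 0.63 (SE, adjusted p = 0.413). Both are named after their values were seen, because they were the 2 genes called without the libraries of 6 mg/L paclobutrazol, when 178 genes were called in all. They were also called without replicate 1 alone (172 genes in all) and without replicate 2 alone (178 genes in all). DESeq2 on all 14 libraries called 494 genes, of which 1, LOC116187625, was in the sets. Without regard to size, both plants at 15 g/L lay above both at 2.5 g/L for 27 higher and 10 lower genes (20.5% of all tested genes). They lay below for 21 higher and 28 lower genes (35.9%). These counts used CPM by column totals, whereas the test used TMM. The median log2 change between the doses over all tested genes was -0.135 with library size alone and -0.019 with TMM. The shares without overlap are therefore not read beside those of the test.

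Among the plants without mannitol, the genes were not at one level. For the 100 higher genes, CK was the other condition nearest to mannitol in 59 and the farthest in 7, and paclobutrazol was the farthest in 42 at 6 mg/L and in 35 at 8 mg/L. For the 100 lower genes, CK was nearest in 50 and farthest in 4, and paclobutrazol was farthest in 31 at 6 mg/L and in 55 at 8 mg/L. The single plant farthest from mannitol was most often replicate 2 of 6 mg/L paclobutrazol, in 69 of the higher and 45 of the lower genes. In the fit, paclobutrazol at both doses against CK had a median log2 fold change of -0.32 over the higher and 0.57 over the lower genes, compared with 0.016 over all tested genes. Of the higher genes, 81 were below and 17 above CK under paclobutrazol, and of the lower genes, 96 were above and 4 below. Of all tested genes, 50.9% were above CK under paclobutrazol. B9 differed less from CK, with medians of -0.12 and 0.19, compared with 0.013. Under B9, 57 of the higher genes were below and 41 above CK, and 75 of the lower genes were above and 25 below. Of all tested genes, 50.7% were above CK under B9. With library size alone as scaling, the median of all tested genes was shifted to -0.16 for paclobutrazol and -0.081 for B9, and the medians of both sets kept their signs, at -0.49 and 0.39 for paclobutrazol and -0.22 and 0.10 for B9. A gene that paclobutrazol or B9 moved beyond the mannitol plants could not be selected, so this order is partly set by the rule and supports nothing further.

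**Figure D3:**
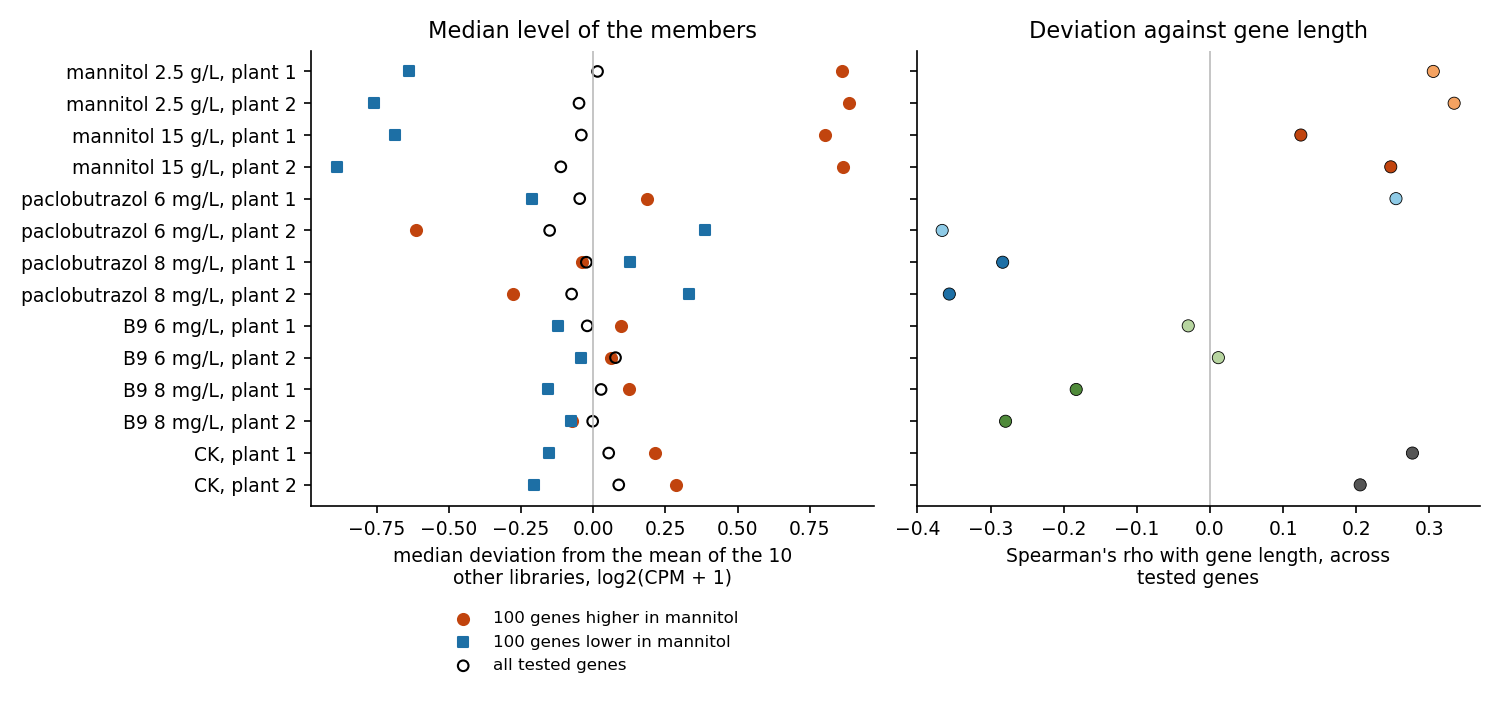
Left, median over the 100 higher genes (circles), the 100 lower genes (squares) and all tested genes (open circles) of each library's deviation from the mean of the 10 libraries without mannitol, in log2(CPM + 1), with 1 row per plant. Right, Spearman's rho across tested genes between gene length and the deviation of a library from the mean of all 14 libraries. The members separate the mannitol rows by construction, and replicate 2 of 6 mg/L paclobutrazol lies opposite to them at -0.61 for the higher and 0.39 for the lower genes.

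Few of the genes passed the thresholds between conditions without mannitol. Paclobutrazol against CK, with 5.57% of all tested genes called, gave 4 genes of the lower set among those above CK (2.91% of all tested genes) and 2 of the higher set among those below CK (2.66%). B9 against CK, with 8.51% called, gave 2 genes of the higher set above CK (3.7%) as well as 1 gene of the lower set above and 1 below CK (4.81%). Paclobutrazol against B9, with 6.22% called, gave 6 genes of the lower set that were higher (3.72%) and 4 of the higher set that were lower under paclobutrazol (2.5%). With at most 6 of 100 genes called, none of these counts is read as a result about the sets. At an unadjusted p under 0.05, 54 genes of the lower set were above CK under paclobutrazol (17.2% of all tested genes) and 24 of the higher set were below (16.3%). For B9 against CK, 4 genes of the higher set and 8 of the lower set were above CK (18.7% of all tested genes). Below CK were 9 of the higher set and 4 of the lower set (17.3%), so these counts lay under the shares of all tested genes. Between paclobutrazol and B9, 42 genes of the lower set were higher (15.6%) and 22 of the higher set were lower (14.5%), and the rule that bounds the plants without mannitol is part of these counts too. No gene of either set was called in the opposite direction between paclobutrazol and B9.

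LOC116187316, a gene of the higher set, was called in all 3 of these comparisons. Mannitol plants had 4.37 and 5.24 CPM at 2.5 g/L and 4.97 and 4.32 CPM at 15 g/L, and the others had 3.19 and 3.28 CPM at 6 mg/L B9, 3.49 and 2.44 CPM at 8 mg/L B9, 0.133 and 0.0502 CPM at 6 mg/L paclobutrazol, 1.23 and 0.697 CPM at 8 mg/L paclobutrazol and 1.07 and 1.07 CPM in CK. B9 plants thus lay between mannitol and CK, and only 6 mg/L paclobutrazol lay below CK in both plants. At that dose replicate 1 held 3 counts and replicate 2 held 1 count of this gene, against 27 and 25 counts in CK. Levels of 3 counts or fewer are at the limit of detection, so the size of its changes under paclobutrazol is uncertain. The log2 change of this gene was -1.63 ± 0.37 (SE, adjusted p = 0.0319) for paclobutrazol against CK, 1.62 ± 0.35 (SE, adjusted p = 0.0219) for B9 against CK and -3.25 ± 0.32 (SE, adjusted p = 0.00118) for paclobutrazol against B9. The first of these values rests on 6 mg/L, since it was 0.0099 without that dose, and the third was then -1.61.

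LOC116200241 of the higher set was called above CK under B9, with 38.7 and 38.2 CPM at 6 mg/L and 28.2 and 39 CPM at 8 mg/L, against 19.3 and 17.6 CPM in CK, and the fitted log2 change was 1.05 ± 0.26 (SE, adjusted p = 0.0312). In mannitol it had 44.7 and 59 CPM at 2.5 g/L and 42.7 and 45.2 CPM at 15 g/L. LOC116206750 of the higher set was called below CK under paclobutrazol, with 13.9 and 4.06 CPM at 6 mg/L and 7.68 and 8.68 CPM at 8 mg/L, against 31.2 and 26.7 CPM in CK, while mannitol plants had 35 and 83.3 CPM at 2.5 g/L and 44.3 and 35.1 CPM at 15 g/L. The lowest mannitol plant exceeded the higher CK plant of this gene by little.

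In the lower set, LOC116201956 was called above CK under paclobutrazol, with 12.8 and 27.4 CPM at 6 mg/L and 22.2 and 27.5 CPM at 8 mg/L, against 11.7 and 11.3 CPM in CK. Its mannitol levels were 7.33 and 6.25 CPM at 2.5 g/L and 9.08 and 8.2 CPM at 15 g/L. LOC116212548, LOC116188947 and LOC116201220 were the other genes called in this direction, with log2 fold changes of 1.08, 1.30 and 4.50. Without replicate 2 of 6 mg/L paclobutrazol, LOC116201220 was at 2.64. LOC116212548, LOC116188947 and LOC116201956 were then at 0.83, 0.91 and 0.76, below the fold threshold. The adjusted p in the edgeR test was 0.0298 for LOC116212548. It was closer to its threshold for LOC116188947 (0.0416), LOC116201220 (0.0422) and LOC116201956 (0.0461). With a replicate block only LOC116212548 of these genes of the lower set was called, and with only the compared libraries none was. LOC116208257 was called above CK under B9, with 81.6 and 74.7 CPM at 6 mg/L and 72.9 and 65.4 CPM at 8 mg/L, against 34 and 30.8 CPM in CK. LOC116210061 was called below CK under B9, with 1.05 and 2.02 CPM at 6 mg/L and 1.2 and 1.1 CPM at 8 mg/L, against 4.85 and 3.98 CPM in CK. Mannitol plants, at 0.772 and 0.481 CPM at 2.5 g/L and 0.539 and 0.128 CPM at 15 g/L, lay further below CK in the same direction. In replicate 2 of 15 g/L, 0.128 CPM corresponds to 3 counts, at the limit of detection, so the size of this difference is uncertain.

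The number of genes called between conditions without mannitol depended on single libraries, both in the sets and among all tested genes. For paclobutrazol against CK, 46 genes of the sets were called in place of 6 without replicate 1 of 6 mg/L paclobutrazol, when 22.2% of all tested genes were called. Without any other library 0 to 5 were called, at 0.01% to 5.85% of all tested genes. For B9 against CK, 12 and 13 in place of 4 were called without replicates 1 and 2 of 6 mg/L paclobutrazol (15.4% and 15.2% of all tested genes), and 0 to 3 without any other library (0% to 7%). For paclobutrazol against B9, 26 in place of 10 were called without replicate 1 of 6 mg/L paclobutrazol (9.42%), and 4 to 8 without any other library (3.13% to 9.89%). The counts in the sets are therefore read only beside these shares.

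Gene length differed between the sets, although the rule did not use it. The length of the gene with its introns had a median of 3618 bases in the higher set and of 2392 bases in the lower set, compared with 3104 bases over the tested genes. Of the higher genes, 56% were longer than the median tested gene, and of the lower genes, 30%. Gene length also went with the deviation of whole libraries from the mean of all 14. Spearman's rho between length and deviation, taken over genes that do not count as independent replicates, was 0.12 to 0.33 in the mannitol libraries. It was 0.21 and 0.28 in CK and 0.25 in replicate 1 of 6 mg/L paclobutrazol, but -0.37 to -0.28 in the other 3 paclobutrazol libraries, and -0.28 to 0.012 in the B9 libraries. After subtraction of each library's trend with length, a step chosen after seeing the data, 78 of the 100 higher and 61 of the 100 lower genes were still set apart. The genes then set apart were 254 above and 185 below, with median lengths of 2981 and 4399 bases. These medians cover other genes than the 100 kept per direction, so they are not set against the medians of the sets. The fold changes of paclobutrazol against CK then had medians of -0.11 over the higher and 0.62 over the lower genes, compared with 0.19 over all tested genes.

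**Figure D4:**
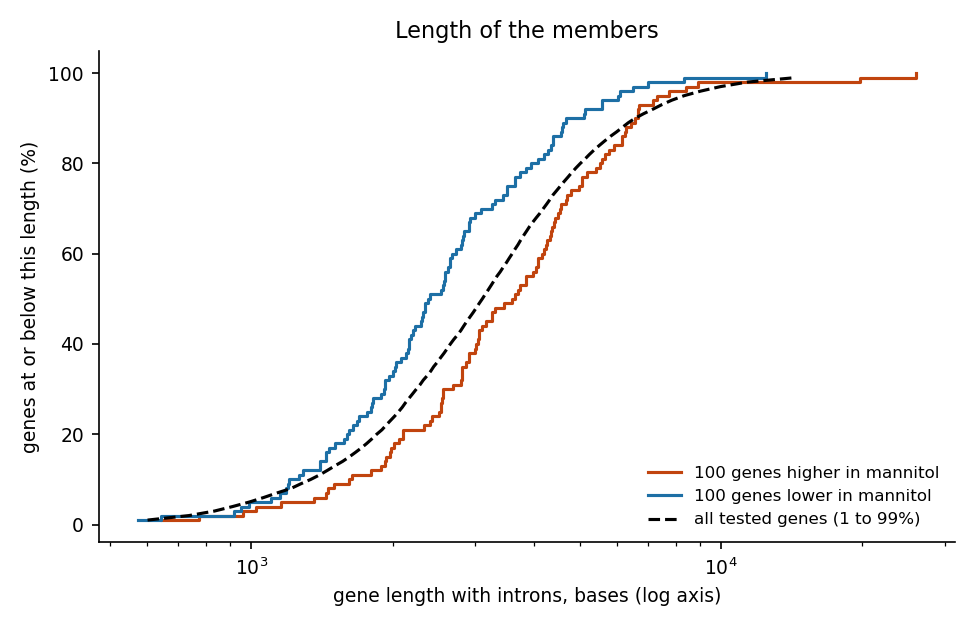
Cumulative share of genes at or below a given length with introns, on a log axis, for the 100 higher genes, the 100 lower genes and all tested genes. The curve of the lower set lies to the left of that of all tested genes, with medians of 2392 and 3104 bases, and that of the higher set lies to the right of it over most of the range, with a median of 3618 bases.

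Only a few genes of the sets are next to each other in the RefSeq annotation, which places 199 of the 200. There were 3 pairs of immediate neighbours, and 11 pairs were no more than 10 positions apart. LOC116202614 and LOC116202925 are neighbours that both belong to the higher set. LOC116202614 had 21.5 and 31.9 CPM at 2.5 g/L and 30.7 and 23.8 CPM at 15 g/L, against 5.47 to 19 CPM (median 9.59), and LOC116202925 had 123 and 130.2 CPM at 2.5 g/L and 131 and 171 CPM at 15 g/L, against 15 to 118 CPM (median 56.4). The other pair with the same direction, LOC116198109 and LOC116195714, was also higher in mannitol. LOC116198109 had 138 and 212 CPM at 2.5 g/L and 157 and 196 CPM at 15 g/L, against 46.2 to 113 CPM (median 91.4), and LOC116195714 had 74.7 and 74.3 CPM at 2.5 g/L and 66.2 and 65.5 CPM at 15 g/L, against 34.8 to 60.7 CPM (median 47.7). In the remaining pair the neighbours went in opposite directions. LOC116199249 was higher, with 84.6 and 84.2 CPM at 2.5 g/L and 89.4 and 90.1 CPM at 15 g/L, against 38.3 to 81 CPM (median 58), and LOC116199250 was lower, with 22.8 and 22.1 CPM at 2.5 g/L and 22.8 and 25.9 CPM at 15 g/L, against 28.6 to 47.3 CPM (median 35.3). Over the 10 plants without mannitol, Pearson's r of log2(CPM + 1) was 0.84, 0.51 and -0.67 in these 3 pairs, in the order given, as a description of libraries that share the treatments and the length trend above. The models of 4 higher and 11 lower genes overlap another gene, and their counts are uncertain for that reason.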

How the data were processed

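Leaf RNA of 14 plants was sequenced, and all columns of values were used. Reads were mapped by the authors with hisat2 to a published pomegranate genome, those with several locations were discarded, and featureCounts was used for counting, so the deposited values are raw counts without normalization, in which copies with shared sequence lose reads. Versions and the strand setting are not given in the sources used here. Groups came from the sample titles. The sets and lists were chosen with earlier results of these data known. RefSeq's table for ASM765513v2 gave biotype, length and gene order for 27509 of the 27893 symbols, and no coordinates are printed because the study cites its reference genome by publication and no build name is given in the sources used here. It has no products or sequences, so the planned promoter motifs and product lists were not analysed.

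CPM used column totals and a pseudocount of 1. Tests were run in R 4.3.3 with edgeR 4.0.16, with TMM, filterByExpr (minimum count of 10), 7 condition means in 1 fit with 7 residual degrees of freedom, Benjamini-Hochberg adjustment over 19478 genes, and the thresholds of the study on fold change and adjusted p. The study used DESeq2, which was an alternative here (1.42.0). The biological coefficient of variation was 32.2%. The SE of a log2 fold change was derived from the test, as its absolute value divided by the square root of the quasi-likelihood F statistic. The libraries of a condition came from separate plants per the study's methods, and p-values measure the spread between them. Alternatives were other scalings, filters and fits, a replicate block and libraries left out. Removal of each library's lowess trend with length (span 0.3) and omission of the 4 paclobutrazol libraries were chosen after seeing the data. The fits were checked on simulated counts. Named genes are the 10 highest scores per direction, the 2 genes on either side of the limit, immediate neighbours, and the called genes with the smallest adjusted p, at most 5 per comparison and direction.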

Additional observations from a re-analysis of the deposited data

Results flagged for a closer look

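The effects of paclobutrazol and B9 relative to CK differed in the direct test for 10 genes of the sets, while 6.22% of all tested genes were called, so the number of genes is not a result about the sets, and the log2 fold changes given here are paclobutrazol over B9 with all 14 libraries in the fit. Of the genes higher in mannitol, LOC116187316 (-3.25), LOC116194453 (-1.70), LOC116213401 (-1.14) and LOC116197009 (-1.06) were lower under paclobutrazol. Of the genes lower in mannitol, LOC116210061 (1.36), LOC116211622 (1.19), LOC116206399 (1.16), LOC116209171 (1.08), LOC116206349 (1.05) and LOC116193491 (1.02) were higher under paclobutrazol. Their adjusted p ranged from 0.0012 to 0.044. The rule bounds the levels of the plants without mannitol, so these directions are partly set by it and are given as a description. The size of the change of LOC116187316 is uncertain, since it had 3 counts and 1 count in the libraries of 6 mg/L paclobutrazol. Without both libraries of 6 mg/L paclobutrazol, LOC116187316 was at -1.61 and still called, and LOC116206399 (0.72), LOC116197009 (-0.76) and LOC116210061 (0.47) were not. Without replicate 2 of that dose alone, LOC116211622 (0.68), LOC116193491 (0.65), LOC116209171 (0.81) and LOC116206349 (0.88) fell below the fold threshold. Without replicate 1 alone, LOC116213401 was at -0.84, LOC116194453 at -1.39 and LOC116210061 at 1.24. The values without a single library are sizes of change and do not say that a gene was still called. The calls did not depend on that dose alone. With only the compared libraries, LOC116187316, LOC116206399 and LOC116206349 were still called, and the other genes were not. With a replicate block, LOC116193491, LOC116194453 and LOC116210061 were not called. LOC116209171 had 773 and 1315 CPM at 6 mg/L and 1236 and 1441 CPM at 8 mg/L paclobutrazol, against 602 and 567 CPM at 6 mg/L and 586 and 633 CPM at 8 mg/L B9, and the 2 chemicals did not overlap.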

How the results depend on the processing

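The numbers of genes above and below all other plants, 136 and 313, were 248 and 190 with TMM-scaled totals, 239 and 173 with DESeq2's size factors, 228 and 676 without 6 mg/L paclobutrazol, 5 and 2 with a score above 0.5, and, chosen after seeing the data, 302 and 946 without any paclobutrazol and 254 and 185 without the length trend. Leaving out 1 library gave 139 to 254 above and 323 to 672 below. Besides the fits that leave out 1 library, there were 10 planned or added ones. In 2 of these the count of members called between mannitol doses, 0, changed. It was 2 without 6 mg/L paclobutrazol (0.917%) and 1 with DESeq2 (2.54%). The shares of all tested genes called stand in brackets. For paclobutrazol against CK (6, 5.57%), it was 10 with the adjusted p alone (8.05%), 11 without the length trend (7.76%), 24 without 6 mg/L paclobutrazol (19.3%), 17 with DESeq2 (12.3%), 0 with only the compared libraries (0.00535%) and 0 to 46 without single libraries (0.01% to 22.2%). For B9 against CK (4, 8.51%), it was 13 without 6 mg/L paclobutrazol (15.6%), 12 with only the compared libraries (15.8%), 10 with DESeq2 (14.5%) and 0 to 13 without single libraries (0% to 15.4%). For paclobutrazol against B9 (10, 6.22%), it was 25 with the adjusted p alone (13.7%), 6 with library size alone (6.12%), 19 without 6 mg/L paclobutrazol (11.1%), 3 with only the compared libraries (2.8%) and 4 to 26 without single libraries (3.13% to 9.89%). LOC116187316 turned to 0.0099 for paclobutrazol against CK without 6 mg/L. The cause of these shifts was not tested.

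With a replicate block, 0, 3, 5 and 7 members were called in the 4 comparisons in the order above. Of all tested genes, 0%, 4.44%, 8.37% and 5.78% were then called. Samples with the same number deviated together (r over 0.1) in 6 of 21 pairs of conditions (range -0.29 to 0.39). Between the doses of the same chemical, r was 0.39 for B9, 0.35 for paclobutrazol and 0.25 for mannitol. Pairs of a mannitol dose with a dose of paclobutrazol or B9 all had a negative r, from -0.29 to -0.056. The labels do not say whether the number marks a shared batch. These correlations cannot decide it, since they show only whether plants deviate together. The promoter alternative was not run. Depth limits the genes under 1 CPM.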
